A study of Mus musculus with 9 samples.

Results

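Acute-phase proteins are plasma proteins whose output changes within hours of tissue injury. Most are made in liver under the control of interleukin-6 and related cytokines, which act through STAT3 and C/EBP transcription factors, but several are also transcribed in lung by epithelium and by myeloid cells. Described here are 8 genes of this kind: the serum amyloid A genes Saa1, Saa2 and Saa3, haptoglobin (Hp), the orosomucoids Orm1 and Orm2, Itih4 and ceruloplasmin (Cp). They were chosen by name from 27203 genes in the deposited table.

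RNA was measured in whole lungs of young male C57BL/6 mice. Ventilator-induced lung injury (VILI) was produced by mechanical ventilation with high tidal volume, and lungs were taken at the end of ventilation (VILI 0 hours, 3 libraries) or 6 hours later (VILI 6 hours, 3 libraries). The control group (3 libraries) was intubated but not ventilated. Ketamine and xylazine anesthesia and the muscle relaxant pancuronium were given with ventilation, so ventilation and these drugs cannot be told apart where the controls did not receive them, and no group was ventilated at low tidal volume. Levels are in FPKM, fragments scaled to transcript length and library size, summed over the transcripts of each gene. Because FPKM is per length, levels can be set side by side between genes.

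The 3 libraries of the VILI 6 hours group were less alike than those of the other groups. VILI 6 hours replicate 1 stood apart: its summed level of 5 erythroid markers was 488.6 FPKM against 3225 to 5419 FPKM in the other 8 libraries, and among the 3 libraries of its group it held the highest value of 51.2% of the 19378 genes tested. Lung markers were high in all libraries, with Sftpc, the surfactant protein of alveolar type 2 cells, between 9684 and 12500 FPKM. Alb, the main plasma protein of hepatocytes, lay between 0.142 and 0.356 FPKM in the 9 libraries, and the hepatocyte markers Apoc3 and Mup3 were listed at 0 in all of them. Of 14 hepatocyte markers, 2 reached a mean of 1 FPKM, Cyp2e1 and Tat, and the summed level of the list was 8.68 to 10.2 FPKM in control, 16.6 to 21.7 FPKM at VILI 0 hours and 5.70 to 18.2 FPKM at VILI 6 hours. Of the 6 that were tested, 3 rose at VILI 0 hours (Cyp2e1, Tat and Tdo2), where 6.81% of all genes rose, and Tat passed the filter on low values only through the VILI groups. Their part in the results below was not tested.

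Saa1 and Saa2 are near copies and Saa3 is a more distant relative, as their sequences show side by side. Saa3, Saa1 and Saa2 lie within 42.3 kb of mouse chromosome 7 (GRCm38, chr7:46711998-46754313), Saa3 and Saa1 on the minus strand and Saa2 on the plus strand. The first 120 bases of each coding sequence, read from the GENCODE M21 annotation, are given below, with the bases that differ from Saa1 at the same position in capitals.
Saa1: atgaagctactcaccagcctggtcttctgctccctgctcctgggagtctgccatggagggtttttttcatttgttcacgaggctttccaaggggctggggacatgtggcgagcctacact
Saa2: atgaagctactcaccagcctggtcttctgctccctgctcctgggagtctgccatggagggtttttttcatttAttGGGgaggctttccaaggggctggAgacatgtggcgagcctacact
Saa3: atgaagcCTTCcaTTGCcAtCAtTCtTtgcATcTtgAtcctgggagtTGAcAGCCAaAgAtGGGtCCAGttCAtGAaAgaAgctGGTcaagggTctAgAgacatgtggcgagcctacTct
Over the whole coding sequence of 369 bases, Saa1 and Saa2 were 95.1% identical with 18 substitutions, and their longest identical run was 73 bases. Saa3 was 74.5% identical to Saa1. The orosomucoid pair on chromosome 4 was 89.9% identical over 624 coding bases and shared 5 of 525 windows of 100 bases. No window of 100 coding bases was shared among Saa1, Saa2 and Saa3. How reads from shorter shared stretches were assigned is not given in the sources used here, so the split between Saa1 and Saa2, and between Orm1 and Orm2, is reported as uncertain.

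The regions before the transcription starts were searched for several motifs, which the choice of genes did not use. Motifs not named here are listed with the processing. RefSeq promoters were found for 6 of the 8 genes (Saa1, Saa2, Saa3, Orm2, Itih4 and Cp). The C/EBP motif TTGCNNAA, searched on both strands in the 250 bases before the start, was found in 5 of these 6 genes, all but Itih4, and in 9.56% of the 32851 promoters of the same length. Cp had 2 promoters in the table and a match in 1 of them, so that 5 of 7 promoters of these genes held it. The windows of 60 bases around the match in the serum amyloid A genes and Orm2 are shown to compare its setting, 5′ to 3′ in the direction of each gene, with the match in capitals.
Saa1: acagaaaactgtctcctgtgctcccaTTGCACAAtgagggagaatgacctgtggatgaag
Saa2: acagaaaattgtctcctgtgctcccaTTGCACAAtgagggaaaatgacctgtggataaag
Saa3: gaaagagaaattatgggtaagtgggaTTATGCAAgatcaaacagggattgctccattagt
Orm2: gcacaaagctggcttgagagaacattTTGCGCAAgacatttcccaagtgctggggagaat
These windows lie at chr7:46743129-46743188 (minus strand), chr7:46751624-46751683 (plus), chr7:46715742-46715801 (minus) and chr4:63362303-63362362 (plus) of GRCm38.p6. The match began 182 bases before the start in Saa1, 183 in Saa2, 99 in Saa3 and 120 in Orm2. The Saa1 and Saa2 windows carry the same 8 matched bases at nearly the same place. These genes are near copies, so their matches are not independent. The Saa3 and Cp matches are on the opposite strand. The STAT motif TTCNNNGAA was found only in Itih4, against 7.02% of all promoters. A match is a description of the sequence and not a binding site.

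In control lung the 8 genes spanned a wide range of levels. Hp, the plasma protein that binds free hemoglobin, was the highest at 320.5 ± 6.70 FPKM (mean ± SD, n = 3), rank 78 among all genes. Cp, a copper-carrying ferroxidase, followed with 71.2, 87.8 and 76.0 FPKM. Itih4, a secreted protein of the inter-alpha-trypsin inhibitor heavy chain family, had 31.4, 36.1 and 36.2 FPKM. Saa3 and Orm1 were near 1 FPKM, and Saa1, Saa2 and Orm2 were at or near 0. Neighbours in this order that overlapped in control lung were Saa3 with Orm1, and Saa1, Saa2 and Orm2 with each other, while Hp, Cp and Itih4 were each apart from the next. Of the summed level of the 8 genes, 417.2 to 451.5 FPKM in control lung, Hp made up 71.7% to 75.0% and Saa3 0.210% to 0.627%.

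**Figure D1:**
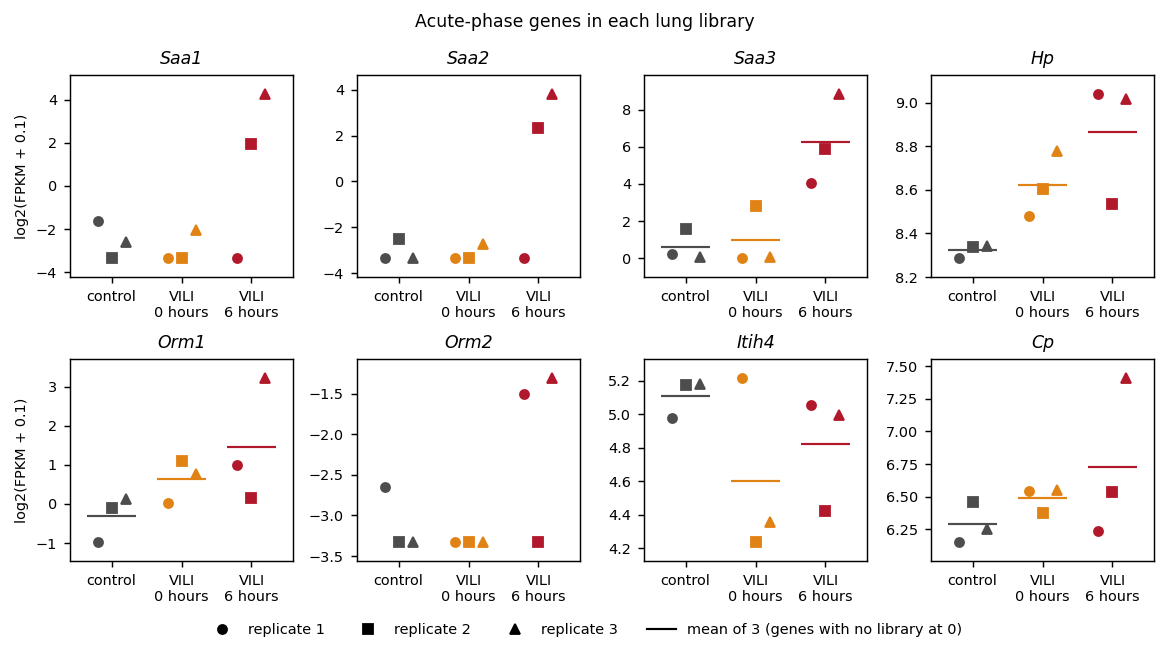
Level of each of the 8 acute-phase genes as log2(FPKM + 0.1) in the 9 lung libraries, by group, with the marker shape giving the replicate and a line at the mean of 3 where no library was at 0. Each panel has its own axis: Saa3 in the 3 VILI 6 hours libraries sits above every other library, while Saa1 and Saa2 are listed at 0 in VILI 6 hours replicate 1.

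The first comparison asked what had changed when ventilation ended. In whole lung, here and below, a change in the number of cells of a type and a change in RNA per cell cannot be told apart. Of the 8 genes, 7 passed the filter of a mean of at least 0.1 FPKM and were tested with limma on log2(FPKM + 0.1); Orm2 did not pass. None of the 7 was called between VILI 0 hours and control at an unadjusted P under 0.05, a threshold that 16.2% of all genes passed (6.81% higher and 9.35% lower), and none passed the adjusted threshold, which 0.284% of genes did. Hp was higher without overlap of the groups (357.1, 388.7 and 439 FPKM against 312.8, 323.8 and 324.9 FPKM), a log2 fold change of 0.30 with a standard error of 0.15, unadjusted P = 0.0707 and adjusted p = 0.356 in limma. Groups without overlap in this direction were found for 12% of all genes. For Itih4 the log2 fold change was -0.51 (95% confidence interval -1.08 to 0.06), with 2 of the 3 VILI 0 hours libraries, at 18.8 and 20.4 FPKM, below every control and replicate 1, at 37.1 FPKM, above them all. Saa3 was 0.921, 6.83 and 0.951 FPKM at VILI 0 hours against 1.08, 2.83 and 0.922 FPKM in control, so that only replicate 2 exceeded the controls. Saa1 and Saa2 were at or under 0.229 FPKM in all 6 libraries of this comparison. Orm1 was 0.92, 2.06 and 1.61 FPKM at VILI 0 hours, replicate 1 within the control range, with a log2 fold change of 0.94 (95% confidence interval -0.60 to 2.49). Cp was 93.0, 82.7 and 93.5 FPKM, with a log2 fold change of 0.20 (95% confidence interval -0.36 to 0.76).

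The second comparison, VILI 6 hours against control, carried the larger differences. The labels give no hours for the controls, so the time of sampling is not known to match. Effects of ventilation, recovery from anesthesia and the time of sampling cannot be told apart here. Saa3, Hp, Orm1 and Saa2 rose at an unadjusted P under 0.05, which 8.17% of all genes did in that direction, and none of the 7 fell. In all, 20.4% of genes had an unadjusted P under 0.05, 12.2% in the lower direction. None of the 7 passed after Benjamini-Hochberg adjustment over all genes, which 0.702% of genes did. The count is given as a description, because Saa1 and Saa2 passed the filter on low values only through the VILI 6 hours group. Saa3, Hp and Orm1 were higher without overlap of the groups, as were 9.64% of all genes. The median log2 fold change of the 7 genes, 1.76 beside -0.09 over all genes, has the same limit, and without Saa1 and Saa2 the middle value of the other 5 was that of Hp, 0.54.

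Saa3, the serum amyloid A made mainly outside the liver, by macrophages, fat and epithelium, gave the widest difference. Its level was 16.5, 58.3 and 460.3 FPKM in VILI 6 hours replicates 1, 2 and 3, and no control library exceeded 2.83 FPKM. All 3 libraries lay above every control and every VILI 0 hours library, and they differed widely from each other. The log2 fold change was 5.65 ± 1.14 (SE; 95% confidence interval 3.09 to 8.20), unadjusted P = 0.00067 and adjusted p = 0.0614 in limma. The exact permutation test gave 0.1, the smallest two-sided p that 3 against 3 libraries allow. In rank by mean level among all genes, Saa3 was at 13101 in control lung and at 210 at VILI 6 hours.

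Saa1 and Saa2, the liver-type serum amyloid A genes carried by high-density lipoprotein, were split among the VILI 6 hours libraries. Saa1 was listed at 0, 3.73 and 19.0 FPKM and Saa2 at 0, 4.97 and 13.9 FPKM in replicates 1, 2 and 3. Replicate 1 was thus at or below the controls for both genes, while replicates 2 and 3 were far above all other libraries. On log2(FPKM + 0.1), the fitted difference from control was 3.99 for Saa2 (unadjusted P = 0.0221, adjusted p = 0.181) and 3.46 for Saa1 (unadjusted P = 0.0502, adjusted p = 0.246) in limma. Most control libraries were at 0 or under 0.1 FPKM, and the call of Saa2 was lost in limma with a pseudocount of 0.01 (unadjusted P = 0.0515) and with no filter (unadjusted P = 0.0533). Left-out VILI 6 hours replicates 1, 2 and 3 gave Saa2 a log2 fold change of 6.13, 3.29 and 2.56 and Saa1 one of 5.60, 2.97 and 1.81. Saa2 was not called without replicate 2 or 3 or without control replicate 1 or 3, and its larger value without replicate 1 follows from dropping the library listed at 0. Saa3, which was above 0 in every library, had a log2 fold change of 6.75 without replicate 1 (adjusted p = 0.0036 in limma), 5.84 without replicate 2 (0.149) and 4.35 without replicate 3 (0.108). In the fit without replicate 1, 4512 genes passed the adjusted threshold in place of 136, so leaving out that library raised the number of calls across the whole table.

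Hp rose by a smaller fold from a high level. At VILI 6 hours it was 526.5, 371.5 and 519 FPKM, each above the highest control of 324.9 FPKM. The log2 fold change was 0.54 ± 0.15 (SE), or 1.45-fold, with an unadjusted P of 0.00436 and an adjusted p of 0.109 in limma. Hp remained the highest of the 8 genes in all 9 libraries, with the lowest share of their summed level, 42.4%, in VILI 6 hours replicate 3, where Saa3 made up 37.6% of 1223 FPKM.

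Orm1, an acidic glycoprotein that binds small lipophilic molecules, was 1.91, 1.01 and 9.24 FPKM at VILI 6 hours against 0.413, 0.838 and 0.9997 FPKM in control. The groups did not overlap, but replicate 2, at 1.007 FPKM, was barely above the highest control. The log2 fold change was 1.76 ± 0.69 (SE), unadjusted P = 0.0296 and adjusted p = 0.201 in limma. Orm1 was no longer called in limma without VILI 6 hours replicate 3 (log2 fold change 0.88), without control replicate 1 (1.44), with only the 6 libraries compared (unadjusted P = 0.052) or with no filter (unadjusted P = 0.065). Its neighbour Orm2 was 0.253, 0 and 0.304 FPKM at VILI 6 hours and at or under 0.06 FPKM in the other 6 libraries, and it did not pass the filter for the test.

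Cp and Itih4 did not pass the test. Cp was 75.2, 92.5 and 169.8 FPKM at VILI 6 hours, with replicate 1 inside the control range and replicate 3 above every other library. Its log2 fold change was 0.44 (95% confidence interval -0.12 to 0.999), which became 0.096 without replicate 3 and, in limma, 0.68 without replicate 1 (unadjusted P = 0.0125, adjusted p = 0.0524). Itih4 was 33.2, 21.3 and 31.8 FPKM, with a log2 fold change of -0.29 (95% confidence interval -0.86 to 0.28). Both intervals include 0, and neither the absence nor the presence of a change was shown.

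The third comparison, VILI 6 hours against VILI 0 hours, set lungs taken 6 hours after ventilation beside those taken at its end. Later effects of ventilation, recovery from anesthesia and the time of sampling cannot be told apart in it. It shares its libraries with the other comparisons and is not independent of them. Saa3 rose at an unadjusted P under 0.05, as did 5.06% of all genes, while 4.94% fell. Saa2 and Saa1 were under the same threshold, but they passed the filter on low values only through the VILI 6 hours group, so their calls are a description. Saa3 alone was higher without overlap of the groups, as were 6.25% of all genes. The log2 fold changes of Saa3, Saa2 and Saa1 were 5.29 (adjusted p = 0.206), 4.06 (adjusted p = 0.414) and 3.86 (adjusted p = 0.456) in limma. In this comparison 0% of genes passed the adjusted threshold, while 10% had an unadjusted P under 0.05. Hp, Orm1, Cp and Itih4 had differences of 0.25, 0.82, 0.24 and 0.22 on the log2 scale, and none was called. Without VILI 6 hours replicate 1 Saa3 had an adjusted p of 0.0241 in limma, in a fit where 356 of 19378 genes passed the adjusted threshold. Saa1 and Saa2 passed it there too, after the library in which they were listed at 0 was dropped. Without VILI 6 hours replicate 3 only Saa3 of these genes was called, while 1876 of all genes were.

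**Figure D2:**
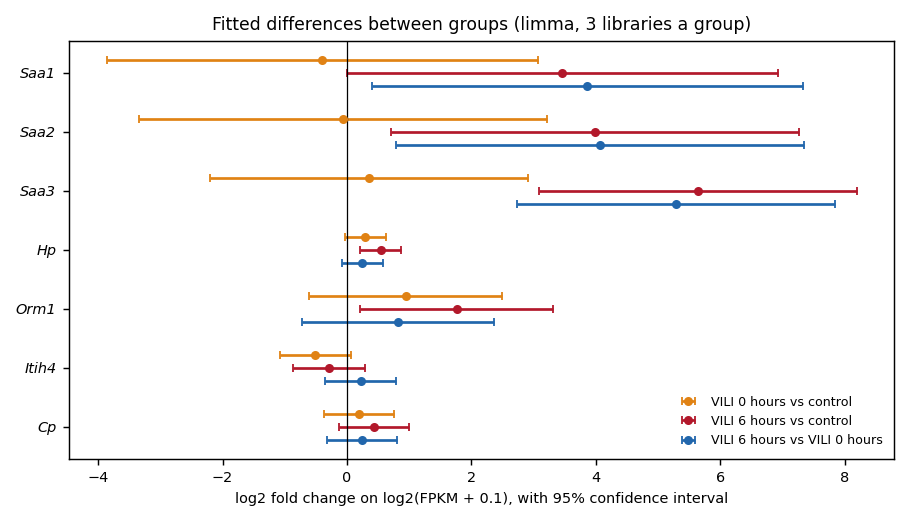
Fitted log2 fold change on log2(FPKM + 0.1) of the 7 tested genes in the 3 comparisons, with 95% confidence intervals from limma (3 libraries per group). The intervals of Saa3 at VILI 6 hours lie wholly above 2, whereas those of Itih4 and Cp include 0 in every comparison.

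The libraries of the VILI 6 hours group were not ordered alike for all of these genes. Replicate 3 was the highest of the 3 for Saa1, Saa2, Saa3, Orm1 and Cp, which is 5 of the 7 tested genes, while it was the highest for 25.4% of all genes. Saa1 and Saa2 passed the filter on low values only through this group, with replicate 1 listed at 0 for both, so the count is a description. Replicate 1 was the highest for Hp and Itih4. Across the 9 libraries, Pearson's r of log2(FPKM + 0.1) was 0.96 between Saa1 and Saa2, 0.87 between Saa2 and Saa3 and 0.82 between Hp and Orm1, and for Itih4 against each other gene it was between -0.18 and -0.01. These values describe 9 libraries in 3 groups, and the points share their groups. Those of Saa1 and Saa2 rest largely on VILI 6 hours replicates 2 and 3, since neither gene exceeded 0.229 FPKM in any other library.

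Itih4 and Cp were deposited as several transcripts, 4 and 8 respectively, and the split among them was uneven. In control replicate 2 and VILI 0 hours replicate 2, the first Itih4 transcript held 34.2 and 17.5 FPKM and the second 1.88 and 1.30 FPKM, while in the other 7 libraries the second was as high as the first or higher. The split of Itih4 between transcripts is thus less certain than its sum. The 8 Cp transcripts kept more even proportions, the fourth leading in control lung with 32.1 ± 1.55 FPKM (SD, n = 3). The sixth was the highest in VILI 0 hours replicate 3 (37.2 FPKM, beside 28.6 FPKM for the fourth) and in VILI 6 hours replicate 3 (59.0 beside 51.8 FPKM). Saa3 came almost wholly from 1 of its 2 transcripts, and 1 of the 3 Saa2 transcripts was listed at 0 in all libraries.

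**Figure D3:**
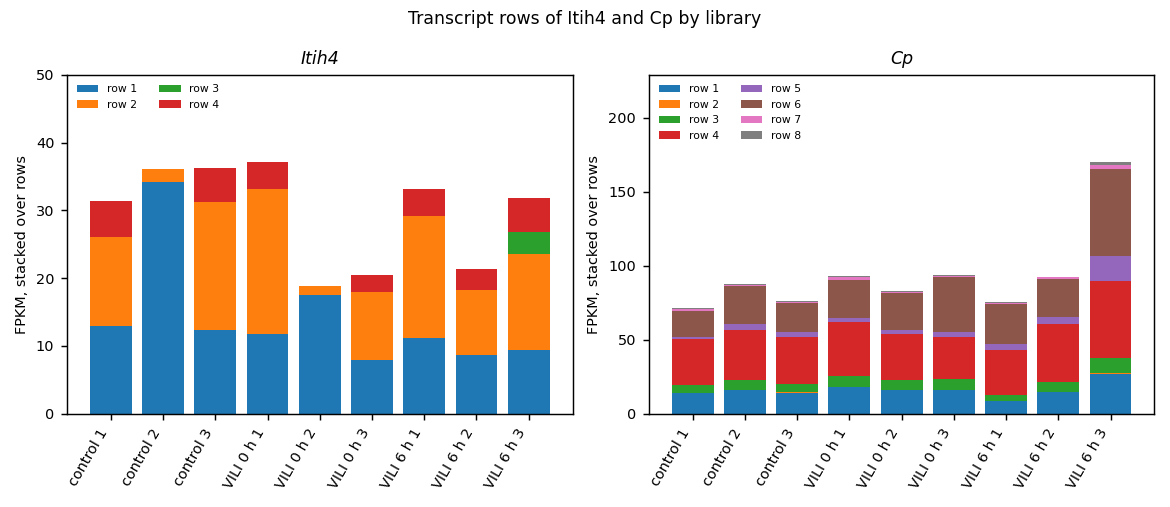
FPKM of each deposited transcript of Itih4 (left) and Cp (right), stacked by library. The second Itih4 transcript is lowest in control replicate 2 and VILI 0 hours replicate 2, and all large Cp transcripts are highest in VILI 6 hours replicate 3.

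Other genes of the acute-phase response were set beside the 8. Of 31 further acute-phase genes, 25 were tested, and 17 rose and none fell at VILI 6 hours against control at an unadjusted P under 0.05, with 2 passing the adjusted threshold. Over all genes 8.17% rose, 12.2% fell and 0.702% passed the adjusted threshold. Those 2 were C3, the central complement component (127 to 144 FPKM in control and 198.5 to 229.6 FPKM at VILI 6 hours, adjusted p = 0.0274 in limma), and Lrg1, a secreted leucine-rich glycoprotein (14.8 to 21.2 against 45.6 to 135.1 FPKM, adjusted p = 0.031). The median log2 fold change of the 25 genes was 1.30. The counts against control include Fga, a fibrinogen chain that passed the filter on low values only through the VILI groups. At VILI 0 hours 5 of the 25 rose (6.81% of all genes did), and between VILI 0 and 6 hours 7 did (5.06% of all genes). Among called genes with a mean of at least 1 FPKM, the rule for all genes named below as widest, the widest rise at both times against control was that of Serpina3m, a serine protease inhibitor of a mouse family of near copies, from 0.578 to 0.616 FPKM in control to 2.92 to 6.80 FPKM at VILI 0 hours and 1.21, 23.8 and 42.9 FPKM at VILI 6 hours. All 3 VILI 0 hours libraries were thus above every control for Serpina3m. Between VILI 0 and 6 hours the widest rise was that of Ptx3, a pentraxin made in tissue (0.0803 to 0.356 FPKM, then 0.415, 4.66 and 13.1 FPKM). Of 8 negative acute-phase genes, which fall in liver during the response, 3 were tested and Rbp4, the retinol carrier, fell at VILI 6 hours by 0.37 on the log2 scale.

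**Figure D4:**
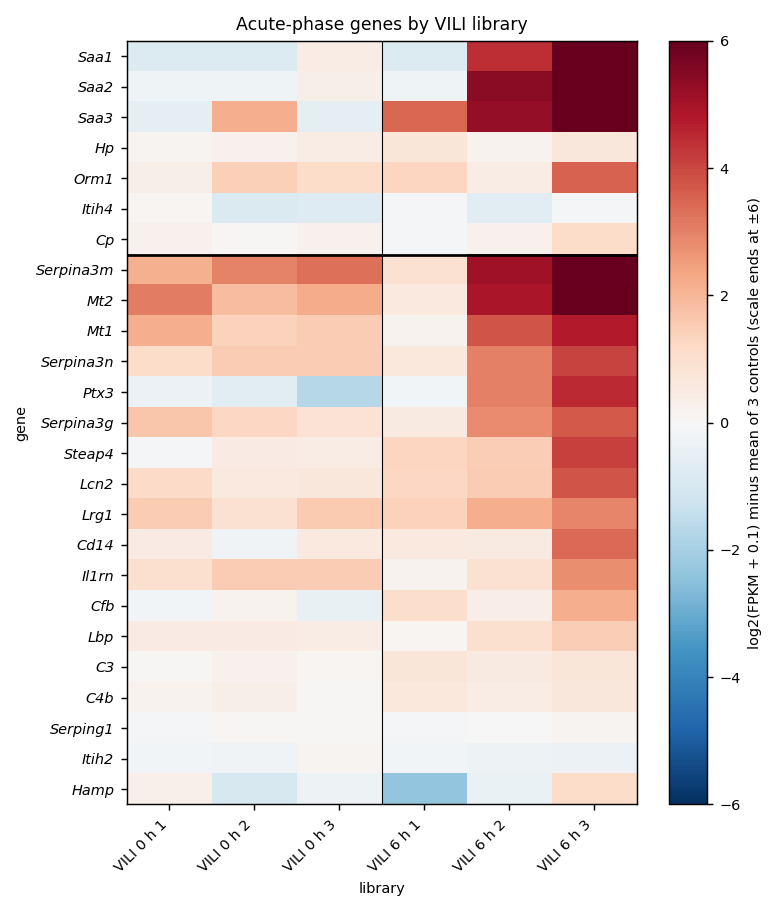
Difference of log2(FPKM + 0.1) in each VILI library from the mean of the 3 controls, for the 7 tested acute-phase genes (above the line) and the 18 further acute-phase genes with a mean of at least 1 FPKM, ordered by their mean at VILI 6 hours. Saa1, Saa2, Serpina3m, Mt2 and Ptx3 are within 1 log2 unit of the control mean in VILI 6 hours replicate 1 and high in replicates 2 and 3; 4 values exceed the scale, Saa3 in replicate 3 the most at 8.24.

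Of the cytokines that induce acute-phase genes, 8 of 9 were tested, and 2 rose at VILI 0 hours, 4 at VILI 6 hours against control and 3 between these times, with none lower. None of the 8 passed the adjusted threshold in any comparison. The shares of all genes that rose were 6.81%, 8.17% and 5.06%. The last 2 counts include Csf3, which passed the filter on low values only through the VILI 6 hours group and is not support for them. Il1b, the inducer with the widest rise at VILI 0 hours, went from 3.27 to 4.95 FPKM in control to 19.6, 32.5 and 82.7 FPKM. Il6 was 0.386, 0.0961 and 0.162 FPKM at that time against 0.138 to 0.277 FPKM in control, overlapping groups. At VILI 6 hours Il6 was 0.306, 1.58 and 19.3 FPKM (log2 fold change 2.93, unadjusted P = 0.027, adjusted p = 0.194 in limma), in the same order of libraries as Saa1, Saa2 and Saa3. Csf3, the granulocyte colony-stimulating factor, was listed at 0 in all controls and at 0, 1.17 and 17.7 FPKM at VILI 6 hours. Il1b at VILI 6 hours was 26.4, 14.0 and 83.4 FPKM and Osm, oncostatin M, was 1.18, 1.65 and 6.19 FPKM against 0.317 to 0.359 FPKM in control. In VILI 6 hours replicate 1 Il1b and Osm were above every control, while Il6, at 0.306 FPKM, was close to the highest control of 0.277 FPKM. Saa1, Saa2 and Csf3 were listed at 0 in that library. The part of these cytokines in the changes of the 8 genes was not tested.

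Among 24 tested cytokine receptors and transcription factors of the response, 13 rose and 2 fell at VILI 6 hours against control; at VILI 0 hours 5 rose and 1 fell, and between the times 9 rose and 1 fell. Over all genes 8.17% rose and 12.2% fell at VILI 6 hours, 6.81% and 9.35% at VILI 0 hours, and 5.06% and 4.94% between the times, so the counts that fell were near or below these shares. No gene of this list passed the adjusted threshold in any comparison. Cebpd, a C/EBP family factor, had the widest rise at VILI 0 hours, from 8.89 to 14.7 FPKM in control to 39.6, 53.2 and 89.4 FPKM. At VILI 6 hours Cebpd was 14.9, 63.5 and 89.7 FPKM, the first barely above the highest control. Socs3, a feedback inhibitor of STAT3 signalling, had the widest at VILI 6 hours, at 25.5, 100.7 and 158.7 FPKM against 9.82 to 12.2 FPKM. Nr3c1, the glucocorticoid receptor, had the widest fall from control at both times (63.5 to 71.7 FPKM in control and 32.7 to 54.3 FPKM at VILI 6 hours). Osmr, the oncostatin M receptor, had the widest rise between VILI 0 and 6 hours, from 19.3 to 21.4 FPKM to 20.5, 42.9 and 56.4 FPKM, and Lifr, the related receptor of leukemia inhibitory factor, the widest fall, from 49.6 to 60.5 FPKM to 33.9 to 39.5 FPKM.

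**Figure D5:**
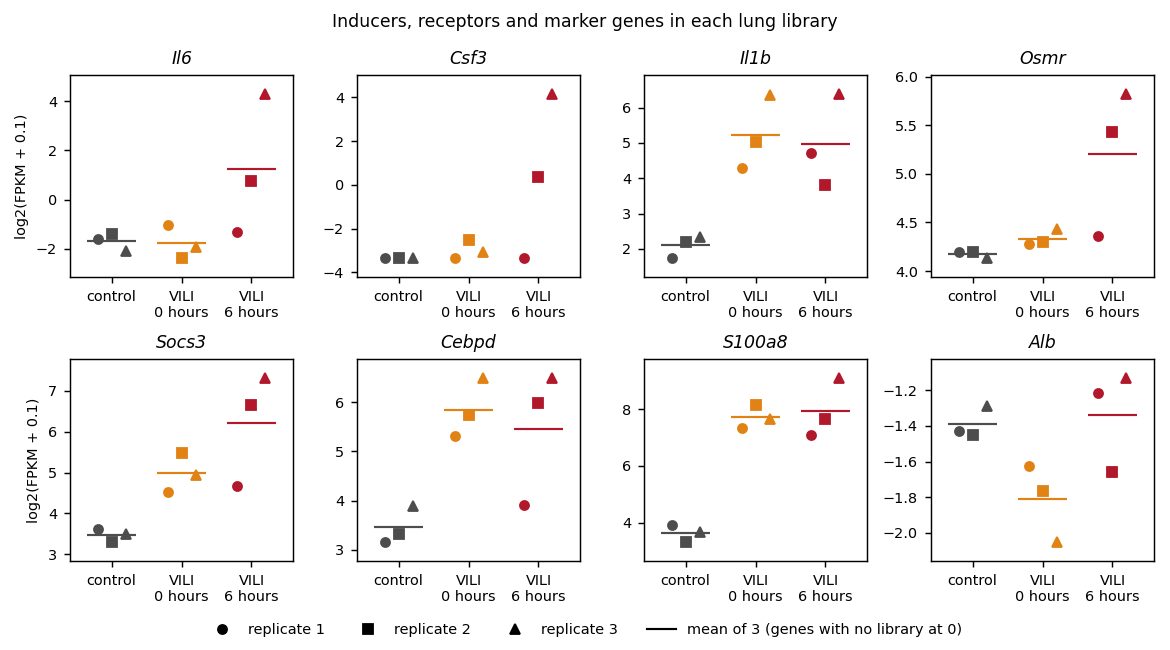
Level as log2(FPKM + 0.1) of 3 inducers (Il6, Csf3, Il1b), a receptor (Osmr), a feedback inhibitor (Socs3), a transcription factor (Cebpd), a neutrophil marker (S100a8) and a hepatocyte marker (Alb) in the 9 libraries, with a line at the mean of 3 where no library was at 0. Il1b, Cebpd and S100a8 are above control in all VILI libraries, though Cebpd only barely in VILI 6 hours replicate 1. Il6, Csf3 and Osmr are high only in VILI 6 hours replicates 2 and 3.

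Osmr was also the gene most like Saa2 across the 9 libraries (r = 0.99 among 14107 genes with a mean of at least 1 FPKM), and was among the 3 most like Saa1 (r = 0.96). For Saa3 the closest were Nsf, Timp1, an inhibitor of metalloproteinases (r = 0.97, 8.90 to 30.5 FPKM at VILI 6 hours against 1.62 to 3.08 FPKM in control), and Plekho2. For Hp they were Slpi, an antiprotease of airway epithelium and neutrophils (r = 0.95), Stfa1 and S100a11. Orm1 was most like Plek (r = 0.96), Cp most like Vav3 (r = 0.97) and Itih4 most like Naa15 (r = 0.96). Each r is over 9 libraries that share their groups and is among the highest of all genes ranked, and it is given as a description. The r values of Saa1 and Saa2 rest largely on VILI 6 hours replicates 2 and 3, the only libraries where these genes exceeded 0.229 FPKM.

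Of 18 receptors and binding partners of the 8 proteins, 7 rose and 1 fell at VILI 0 hours, and 6 rose and 3 fell at VILI 6 hours against control. Between the times 1 rose and 4 fell. Against the shares of all genes (6.81% higher and 9.35% lower at VILI 0 hours, 8.17% and 12.2% at VILI 6 hours, 5.06% and 4.94% between the times), the 1 that rose between the times and the genes that fell from control were near the background. None of the 18 passed the adjusted threshold in any comparison. Cd163, the scavenger receptor of macrophages that takes up haptoglobin bound to hemoglobin, had the widest rise at VILI 0 hours, from 1.81 to 2.12 FPKM to 3.68, 6.23 and 5.87 FPKM. Fpr2, a formyl peptide receptor that also binds serum amyloid A, had the widest rise at VILI 6 hours, from 3.49 to 5.39 FPKM to 7.27, 10.0 and 21.1 FPKM. Tfrc, the transferrin receptor, had the widest fall at both times, from 34.6 to 39.5 FPKM in control to 18.4 to 24.8 FPKM and 15.2 to 26.2 FPKM. Between VILI 0 and 6 hours the widest rise was that of Lrp1, a large endocytic receptor (0.30 on the log2 scale), and the widest fall that of Cd36, a scavenger receptor that binds serum amyloid A (fell by 0.66 on the log2 scale).

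Markers of the cell types that whole lung can hold were summed in each library. Of 14 neutrophil markers 12 were tested, and 9 rose at VILI 0 hours (6 after adjustment), where 6.81% of all genes rose and 0.284% passed adjustment. At VILI 6 hours 11 rose (9 after adjustment), where 8.17% of all genes rose and 0.702% passed adjustment. Both counts include Ly6g, which passed the filter on low values only through the VILI groups. Their summed level was 55.4 to 67.2 FPKM in control, 577.4 to 1043 FPKM at VILI 0 hours and 503.9, 1042 and 2146 FPKM in VILI 6 hours replicates 1, 2 and 3, with no marker of the list at 0 in all libraries. The neutrophil sum at VILI 0 hours was thus above control in all 3 libraries. The summed level of 8 adipocyte markers was 67.8 to 103 FPKM in control and 70.1 to 71.9 FPKM at VILI 6 hours, and that of 10 alveolar type 2 markers 14130 to 15480 FPKM in control and 13640 to 14320 FPKM at VILI 6 hours. The 9 alveolar macrophage markers summed to 261.2 to 350.2 FPKM in control, to 430.2 to 494 FPKM at VILI 0 hours, where 6 of 9 rose, and to 684.1, 290.5 and 450 FPKM at VILI 6 hours. Chil3, which monocytes also express, made up most of the sum in replicate 1, at 527.9 FPKM against 141.9 and 221.3 FPKM in replicates 2 and 3. The part of neutrophils and of the other cell types in the levels and changes of Saa1, Saa2, Saa3, Hp and Orm1 was not tested.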

How the data were processed

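Total RNA of 9 mouse lungs, 3 per group by the sample labels, had been sequenced by the authors. The deposited values are FPKM per transcript, made by the authors with TopHat2 2.0.9, Bowtie2 2.0.6 and Cuffdiff 2.1.1 on GRCm38 (tools and build from the submitters' processing notes). FPKM columns summed to between 366360 and 388459. Read counts per gene were not used here, so the number of reads behind a value was not determined and no counting interval is given. The labels do not say whether replicates were handled as separate batches, and p-values measure only the spread between these libraries. Since genes that every cell uses can have transcripts at 0, a value of 0 is written as listed at 0.

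Gene IDs without version were matched to GENCODE M21 (23580 of 23713 Ensembl IDs) and FPKM was summed over the rows of a gene. log2(FPKM + 0.1) of the 19378 genes with a mean of at least 0.1 FPKM was fitted with limma 3.58.1 in R 4.3.3 (group as the only factor, all 9 libraries, eBayes with a trend), a pipeline tested on simulated data. A gene was called at an unadjusted P under 0.05, the study's threshold, and Benjamini-Hochberg adjusted values are over all tested genes. Fold changes are on the log2(FPKM + 0.1) scale, which understates those of low genes. Single values were also tested by two-sided exact permutation. Python 3.11.15 with scipy 1.17.1 and pandas 2.3.3 was used.

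Members and lists were chosen with earlier results of these data known. Named genes were the members; per list and comparison the largest rise and fall among called genes with a mean of at least 1 FPKM; the leading markers of each cell type; and the 3 genes most correlated with each member. Sequences came from GENCODE M21 and RefSeq promoters (GRCm38.p6). Other motifs searched, on both strands in the 250 bases before the start, were the IL-6 response element CTGGGAA (9.1% of promoters), NF-kappaB (3.9%), the glucocorticoid response element (0.387%), the hypoxia core ACGTG (16.6%), each in no member, and the TATA box TATAAA (12.4%), in Cp and Orm2. The alternatives were 2 pseudocounts, 2 filters, median-centred libraries, the highest row per gene, only the 6 libraries compared, no trend, the replicate number as a block and leaving out each library.

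The marker lists other than neutrophil gave these called genes at VILI 6 hours against control: monocyte 4 of 8 higher, alveolar macrophage 2 of 9 higher, club and airway epithelium 1 of 6 higher, mesothelial 1 of 5 higher, endothelial 2 of 7 lower, fibroblast 3 of 7 lower, alveolar type 2 1 of 10 lower, adipocyte 2 of 8 lower, hepatocyte 2 of 6 higher (Tdo2, and Tat, which passed the filter only through the VILI groups), and erythroid and cardiac muscle none. Over all genes 8.17% were higher and 12.2% lower.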

Additional observations from a re-analysis of the deposited data

Results flagged for a closer look

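Between the 2 times after ventilation, 3 of the 7 tested acute-phase genes had an unadjusted P under 0.05 in limma for VILI 6 hours against VILI 0 hours, as did 10% of all genes (5.06% higher), and none passed adjustment over all genes. For Saa3 the log2 fold change was 5.29 (unadjusted P = 0.00105, adjusted p = 0.206), with 3 of 3 libraries at VILI 6 hours above every library at VILI 0 hours. For Saa2 it was 4.06 (unadjusted P = 0.0204, adjusted p = 0.414) and for Saa1 3.86 (unadjusted P = 0.0326, adjusted p = 0.456), each with 2 of 3 libraries above and replicate 1 listed at 0. Saa1 and Saa2 passed the filter on low values only through the VILI 6 hours group, so their values are a description and do not show a difference between the times.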

How the results depend on the processing

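Of 378 values recomputed under 18 other settings, 333 kept their direction and their side of the threshold, 13 passed it where they had not, 21 no longer passed it and 11 changed sign. The number of the 7 genes called between VILI 0 hours and control, 0, became 1 with median-centred libraries (Hp, with 3176 of all genes called). It became 2 with only the 6 libraries compared (Hp and Orm1, where 5094 of 19378 genes were called in place of 3130). When a library was left out it was 0 to 1. It was Itih4, lower, without VILI 0 hours replicate 1 (2497 of all genes). Higher were Hp without VILI 6 hours replicate 1 (4493) or 2 (3014), and Orm1 without VILI 6 hours replicate 3 (3900). At VILI 6 hours against control the 4 calls became 2 with no filter (Saa3 and Hp, with 4073 of 27203 genes called). They became 2 to 6 when a library was left out: 2 when control replicate 1 (2787 of all genes) or the third VILI 6 hours library (2735) was dropped, and 6 when VILI 6 hours replicate 1 was (7526, in place of 3952). Between the times the 3 calls (1938 of all genes) became 1 to 3. They were Saa3 without VILI 6 hours replicate 3 (1876 of all genes) and Saa3 and Itih4 without VILI 0 hours replicate 1 (1903). They were Saa3 and Hp without VILI 6 hours replicate 2 (1906), and Saa3 and Saa2 without VILI 0 hours replicate 2 (1431). With no filter they were Saa3 and Orm2 (2390 of 27203 genes). With a replicate block the counts were 0, 5 and 3, where 2816, 3485 and 1693 of all genes were called in place of 3130, 3952 and 1938. The replicate numbers do not pair the libraries, since over 9 pairs the correlations of deviations ran from -0.22 to 0.017, and 3 libraries were closest to their own number.

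The changes of sign, none in a called value, were these. At VILI 0 hours against control, leaving out a library gave -0.82 to 0.050 for Saa1 (positive without control replicate 1), -0.27 to 0.20 for Saa2 (0.20 without control replicate 2, 0.031 without VILI 0 hours replicate 1 or 2) and -0.56 to 0.83 for Saa3 (negative without VILI 0 hours replicate 2). Saa2 was 0.044 with median-centred libraries and 0.0 with its highest row, and Cp was -0.0065 with its highest row. Between the times, leaving out a library gave -0.062 to 1.48 for Orm1 and -0.10 to 0.48 for Cp, both negative without VILI 6 hours replicate 3, and Itih4 was -0.28 with its highest row. The cause was not tested.

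Median-centring moved the median of all genes at VILI 0 hours from -0.07 to 0.05 and at VILI 6 hours from -0.09 to 0.04, and the called genes at VILI 6 hours from 1583 higher and 2369 lower to 2270 and 1640 (VILI 0 hours: 1319 and 1811 to 1944 and 1232). Over all genes, adjusted calls at VILI 6 hours against control, 136, ranged from 0 to 4512 when a library was left out, highest without VILI 6 hours replicate 1. Orm2 did not pass the filter, and with no counts per gene the number of reads behind low values was not determined.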
